A study of Homo sapiens with 36 samples.

Results

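The transcripts of 10 genes of the BCL2 family, which regulates apoptosis, were followed in K562 cells kept at 3 oxygen levels. The genes were found by symbol in an expression table of 21950 genes, where all 10 were listed. The protective members were BCL2L1 and MCL1. The death-promoting members were the effectors BAX and BAK1 and the BH3-only genes BID, BAD, BIK, BBC3, PMAIP1 and BCL2L11. K562 is an established human erythroleukemia line. Cells in DMEM were kept in incubators at 21%, 5% or 1% oxygen and collected after 6 h, 24 h, 3 d or 6 d, with a passage at 3 d, so the 6 d cultures had been reseeded. This gave 12 groups of 3 libraries each, 36 in all, and the labels name no drug and no genetic change in any of them. The labels do not say whether the replicates were separate cultures, so the p-values reflect no more than the scatter of these libraries. Oxygen level and incubator cannot be told apart.

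Proteins of this family meet at the outer mitochondrial membrane. BAX and BAK1, once active, form pores there and release cytochrome c, which starts the caspase cascade. BCL2L1 (the gene of BCL-XL) and MCL1 hold them in check, and the BH3-only proteins relay stress by occupying the protective members or by activating the effectors directly. PMAIP1 (NOXA) binds MCL1 preferentially, BAD binds BCL-XL and its relatives, and BID and BCL2L11 (BIM) bind all protective members and can also activate the effectors. The RNA levels given here do not measure the proteins, several of which are regulated by turnover, cleavage or phosphorylation.

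Levels are given in FPKM, sequenced fragments scaled to the length of the transcript and the size of the library, so that genes can be compared with each other. The files hold no counts, so the depth of each library and the counting error are unknown. In 35 libraries, 14512 to 19543 genes were above 0. Replicate 3 of 1% oxygen at 3 d had 7220, and 429 of the 3695 genes with a median above 20 FPKM were at 0 in it, against at most 7 in any other library. This library, called shallow here for its few genes above 0 and not for a measured depth, was kept. Differences and counts that involve 1% oxygen at 3 d are given with and without it. The 12 erythroid and globin markers of K562 were expressed in all libraries except 1 at 0 for GYPB and 1 for EPOR, with the embryonic globin gene HBZ at a median of 3925 FPKM and the erythroid factor GATA1 at 215. Of 8 markers of other blood cells, 7 had a median under 1 FPKM, CD3D being at 86.0, and of 6 markers of stroma and epithelium 4 did, EPCAM being at 109. In bulk RNA a change in the cells present and a change in RNA per cell cannot be told apart.

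Of the 10 members, 8 had a mean of at least 1 FPKM over all libraries and were tested. BID was the most abundant, with a mean of 63.5 FPKM, followed by BCL2L1 at 49.5, BAK1 at 26.2, MCL1 at 20.5, BAD at 19.8, PMAIP1 at 17.6, BCL2L11 at 15.3 and BAX at 6.80. The BH3-only genes BBC3 (PUMA) and BIK lay below the minimum, with means of 0.789 and 0.315 FPKM. The founding member BCL2 itself had a median of 0.126 FPKM and was at 0 in 3 libraries. Tests were made on log2(FPKM + 1) with limma, adjusted over the 10625 genes tested, and passing means an adjusted p under 0.05. On this scale a fold change of a weakly expressed gene is understated.

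**Figure D1:**
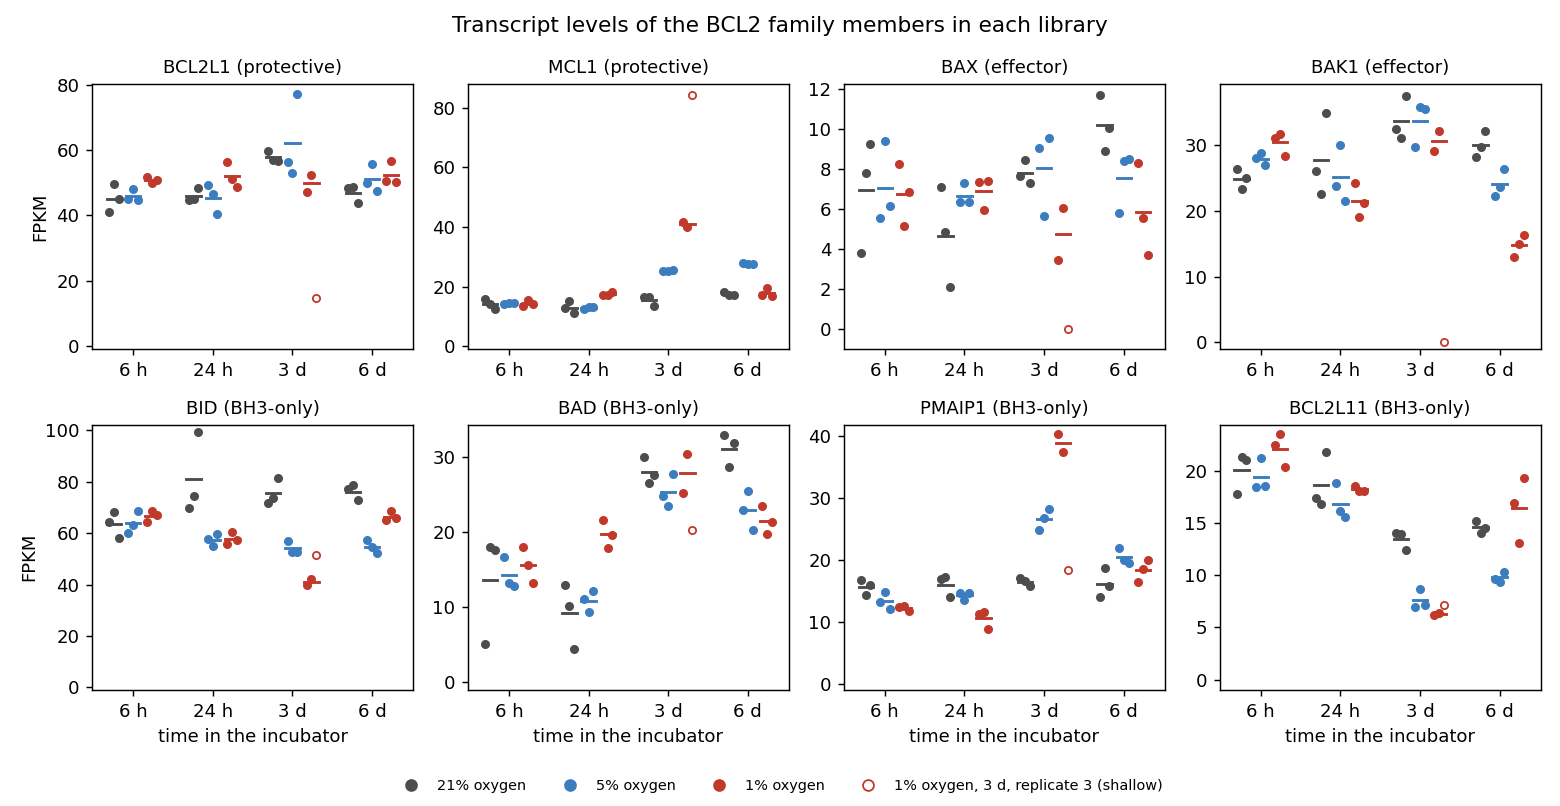
FPKM (vertical axes) of the 8 tested members in each library against time in the incubator, coloured by oxygen level, with a line at each group mean without the shallow library, which is drawn as an open point. MCL1 and PMAIP1 stood highest in 1% oxygen at 3 d, where BID and BCL2L11 stood lowest, while BCL2L1 kept to 40.5 to 77.3 FPKM outside the shallow library.

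MCL1, which encodes a short-lived protective protein, was higher at 3 d in both low oxygen levels and at 6 d in 5% oxygen. In 21% oxygen its level was 16.5, 16.6 and 13.6 FPKM at 3 d and 18.3, 17.3 and 17.2 FPKM at 6 d. In 5% oxygen it was 25.1, 25.2 and 25.4 FPKM at 3 d and 27.9, 27.6 and 27.4 FPKM at 6 d. In 1% oxygen it was 41.6, 40.1 and 84.5 FPKM at 3 d, the last value being that of the shallow library, and 17.0, 19.6 and 17.0 FPKM at 6 d. At 3 d the 3 oxygen levels therefore stood in order without overlap, and at 6 d the 5% libraries stood above both other groups, which overlapped each other.

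Against 21% oxygen, MCL1 in 1% oxygen was higher at 3 d by 1.69 ± 0.16 (SE), limma adjusted p = 3.02e-09, on the log2 scale. Leaving that library out, the difference was 1.34 ± 0.10 (SE), limma adjusted p = 4.49e-12. In 5% oxygen it was higher by 0.67 ± 0.16 (SE), limma adjusted p = 0.00312 at 3 d, and by 0.62 ± 0.16 (SE), limma adjusted p = 0.00826 at 6 d. In 1% oxygen at 6 d the difference from 21% was 0.02 ± 0.16 (SE), limma adjusted p = 0.986. At 6 d the 1% libraries thus overlapped the 21% ones while the 5% libraries were still higher, and the difference between both low levels passed its own test, 1% minus 5% being -0.61 ± 0.16 (SE), limma adjusted p = 0.0172. After rescaling each library to a common total, the differences of 5% from 21% at 3 d and of 1% from 5% at 6 d missed the threshold, at 0.54 (limma adjusted p = 0.11) and -0.77 (limma adjusted p = 0.0538). The latter also missed it on leaving out 5 of the 6 libraries compared, one at a time, with adjusted p-values of 0.0542 to 0.0776 by limma, though without the shallow library it was -0.61 ± 0.09 (SE), limma adjusted p = 7.53e-06.

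At 6 h the level of MCL1 was 12.5 to 15.9 FPKM in 21%, 14.1 to 14.6 in 5% and 13.4 to 15.3 in 1% oxygen, ranges that overlapped. At 24 h it was 12.6, 15.004 and 11.2 FPKM in 21% and 17.3, 17.2 and 18.2 FPKM in 1% oxygen. These 2 groups did not overlap, and the difference was 0.42 ± 0.16 (SE), limma adjusted p = 0.0799. The same difference without the shallow library, whose spread enters the error of every comparison, was 0.42 ± 0.09 (SE), limma adjusted p = 0.000558.

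BCL2L1, the more abundant protective member, had group means that spanned 0.44 on the log2 scale without the shallow library, the narrowest span among the 8 tested members. With that library the span was 0.86, and BID had the narrowest, 0.85. Outside that library BCL2L1 ranged from 40.5 to 77.3 FPKM. At 3 d in 21% oxygen BCL2L1 lay above all 21% libraries of the other times, which reached at most 49.7 FPKM. In 21% oxygen it was 59.8, 57.1 and 56.7 FPKM at 3 d, in 5% oxygen 56.4, 53.0 and 77.3 FPKM and in 1% oxygen 47.2, 52.4 and 14.8 FPKM. The low value of 14.8 belonged to the shallow library, with which the difference of 1% from 21% oxygen was -0.78 ± 0.24 (SE), limma adjusted p = 0.00917. Without it that difference was -0.21 ± 0.11 (SE), limma adjusted p = 0.109. At the other times 1% and 21% oxygen differed by 0.17 at 6 h, 0.17 at 24 h and 0.16 at 6 d, and none of these passed.

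The deposited transcript table divides the members by isoform, although reads of 25 bases leave such estimates uncertain. Of the mean BCL2L1 signal, 95.7% was assigned to the transcript of 233 codons (the long, protective BCL-XL form) and 4.27% to that of 170 codons (the short form, which promotes death). For MCL1, 83.2% was assigned to a transcript of 197 codons, 12.6% to that of 350 codons, the full-length protective form, and 4.18% to that of 271 codons. Transcript levels summed to the gene level within 1% in 36 of 36 libraries for every member.

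The effectors were expressed at unequal levels, BAK1 above BAX in every library except the shallow one, where both were at 0. BAK1 in 21% oxygen at 6 d was 28.2, 29.7 and 32.1 FPKM. In 5% oxygen it was 22.3, 23.6 and 26.3 FPKM, and in 1% oxygen 13.0, 14.99 and 16.4 FPKM. The 3 oxygen levels stood in descending order at 6 d without overlap. The difference of 1% from 21% oxygen was -0.98 ± 0.66 (SE), limma adjusted p = 0.451, the error being widened by the shallow library's 0. Without that library it was -0.98 ± 0.13 (SE), limma adjusted p = 7.84e-07, so the call depends on that 1 library, and the difference of 5% from 21% oxygen was -0.31 ± 0.13 (SE), limma adjusted p = 0.0577. At 3 d the difference of 1% from 21% oxygen passed only with the shallow library, at -1.79 ± 0.66 (SE), limma adjusted p = 0.0242, against -0.13 ± 0.14 (SE), limma adjusted p = 0.451 without it.

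BAX was low and scattered, at 2.07 to 11.7 FPKM outside the shallow library. At 6 d it was 11.7, 8.88 and 10.04 FPKM in 21% oxygen, 5.78, 8.40 and 8.51 in 5% and 8.31, 5.54 and 3.71 in 1%. The 1% libraries were below all of the 21% libraries, and the difference was -0.76 ± 0.44 (SE), limma adjusted p = 0.352 with all libraries and -0.76 ± 0.29 (SE), limma adjusted p = 0.0501 without the shallow one. At 3 d, BAX in 1% oxygen was 3.44, 6.02 and 0 FPKM, and the difference of -1.48 (limma adjusted p = 0.00652) became -0.65 (limma adjusted p = 0.0928) without the shallow library's 0.

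Among the BH3-only members, PMAIP1 (NOXA), the partner that binds MCL1 and promotes its degradation, changed in the same direction as MCL1 at 3 d. In 21% oxygen at 3 d it was 17.0, 16.5 and 15.7 FPKM, in 5% oxygen 24.7, 26.7 and 28.2 FPKM and in 1% oxygen 40.2, 37.3 and 18.4 FPKM. Outside the shallow library, at 18.4, the 3 levels stood in ascending order as oxygen fell, without overlap. The difference from 21% was 0.85 ± 0.17 (SE), limma adjusted p = 0.000249 in 1% oxygen (1.19, limma adjusted p = 1.28e-09, without the shallow library). In 5% oxygen it was 0.66 ± 0.17 (SE), limma adjusted p = 0.00589.

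Earlier the direction was the opposite. At 24 h PMAIP1 was 16.8, 17.2 and 13.9 FPKM in 21%, 14.6, 13.6 and 14.6 in 5% and 11.2, 11.6 and 8.80 in 1% oxygen. All 1% libraries lay below all others, and the difference of 1% from 21% was -0.56 ± 0.17 (SE), limma adjusted p = 0.0249. It missed the threshold when replicate 1 or 2 of 21% oxygen or replicate 3 of 1% oxygen at 24 h was left out, with limma adjusted p-values of 0.0665, 0.0842 and 0.155, and after rescaling to a common total, at -0.14 (limma adjusted p = 0.628). At 6 d PMAIP1 was 14.0 to 18.7 FPKM in 21%, 19.4 to 21.8 in 5% and 16.4 to 19.96 in 1% oxygen. The 5% libraries lay above the 21% ones, and their difference was 0.33 ± 0.17 (SE), limma adjusted p = 0.253 with all libraries and 0.33 ± 0.10 (SE), limma adjusted p = 0.0145 without the shallow one.

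The 250 bases before the RefSeq start of PMAIP1 are shown because its level moved in opposite directions at 24 h and 3 d. They lie at chr18:59899746-59899995 on the plus strand of GRCh38.p14, and capitals mark GCGTG, a core of the hypoxia response element, and TGACGT, a core of the cAMP response element, on either strand (the latter reads ACGTCA here).

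PMAIP1: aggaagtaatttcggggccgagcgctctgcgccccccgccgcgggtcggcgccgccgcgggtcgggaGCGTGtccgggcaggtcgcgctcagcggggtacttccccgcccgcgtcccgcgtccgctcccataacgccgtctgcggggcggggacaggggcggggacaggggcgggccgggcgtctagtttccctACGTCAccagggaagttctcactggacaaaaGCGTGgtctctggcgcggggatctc

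GCGTG occurred at 2 places in this window and TGACGT at 1. ACGTG, the other core of the hypoxia response element, was absent. So were the CHOP composite motif TGATGCAA, the forkhead motif TGTTTAC and the STAT motif TTCNNNGAA. GCGTG was also in the windows of BCL2L1, BID, BAD and BCL2L11. Over 35116 windows of the same length, searched on both strands, GCGTG was in 32.2% and TGACGT in 7.10%. A match is a description of these letters and not a measured binding site.

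BCL2L11 (BIM), a BH3-only gene whose product binds every protective member, moved opposite to MCL1. In 21% oxygen it was 14.1, 14.0 and 12.4 FPKM at 3 d and 15.2, 14.1 and 14.5 FPKM at 6 d. In 5% oxygen it was 6.95, 8.72 and 7.20 FPKM at 3 d and 9.63, 9.40 and 10.4 FPKM at 6 d. In 1% oxygen it was 6.18, 6.41 and 7.12 FPKM at 3 d and 16.9, 13.1 and 19.4 FPKM at 6 d. At 3 d every library of both low oxygen levels lay below every 21% library, the shallow one included, and at 6 d this held for 5% oxygen while the 1% libraries overlapped the 21% ones.

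Against 21% oxygen BCL2L11 was lower in 1% oxygen at 3 d, with a difference of -0.94 ± 0.12 (SE), limma adjusted p = 4.16e-07 (without the shallow library -0.99, limma adjusted p = 1.45e-07). In 5% oxygen the difference at 3 d was -0.76 ± 0.12 (SE), limma adjusted p = 2.55e-05. The difference of 5% was -0.53 ± 0.12 (SE), limma adjusted p = 0.00235 at 6 d, when that of 1% oxygen was 0.15 ± 0.12 (SE), limma adjusted p = 0.579. The direct comparison at 6 d put 1% above 5% oxygen by 0.68 ± 0.12 (SE), limma adjusted p = 0.000303. After rescaling to a common total the difference of 5% from 21% at 6 d was -0.42 (limma adjusted p = 0.0981). At 6 h and 24 h BCL2L11 lay between 15.6 and 23.6 FPKM in all groups, and no comparison between oxygen levels passed at those times.

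The window before BCL2L11, chr2:111120664-111120913 on the plus strand of GRCh38.p14, is shown beside that of PMAIP1 because both genes changed at 3 d in opposite directions. Capitals mark GCGTG on the minus strand, which reads CACGC here.

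BCL2L11: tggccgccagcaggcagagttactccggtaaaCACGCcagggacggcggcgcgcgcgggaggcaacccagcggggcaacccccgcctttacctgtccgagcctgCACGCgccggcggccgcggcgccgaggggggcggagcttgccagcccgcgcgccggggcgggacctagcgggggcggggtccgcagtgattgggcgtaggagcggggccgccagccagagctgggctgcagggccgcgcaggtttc

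GCGTG occurred at 2 places. TGTTTAC, a forkhead motif held by 2.98% of all windows, occurred at 1 place on the minus strand and overlapped the first GCGTG match. TGACGT, the CHOP composite motif TGATGCAA and the STAT motif TTCNNNGAA were not in these 250 bases. RefSeq windows were matched for 8 of the 10 members. MCL1 and BIK had no entry.

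BID, which is cleaved by caspase 8 and carries the death receptor signal to mitochondria, had lower group means in both low oxygen levels from 24 h on. At 6 h it was 58.3 to 68.3 FPKM in 21%, 59.9 to 68.6 in 5% and 64.2 to 68.6 in 1% oxygen, ranges that overlapped. At 3 d it was 71.7, 73.8 and 81.5 FPKM in 21%, 57.1, 52.7 and 52.5 in 5% and 39.7, 42.1 and 51.5 in 1% oxygen. All libraries of both low levels lay below all 21% libraries. The difference of 1% from 21% oxygen was -0.76 ± 0.10 (SE), limma adjusted p = 6.39e-07 (without the shallow library -0.87, limma adjusted p = 1.93e-08). That of 5% from 21% was -0.48 ± 0.10 (SE), limma adjusted p = 0.000766.

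At 6 d BID was 77.1, 78.6 and 72.9 FPKM in 21%, 57.4, 54.7 and 52.3 in 5% and 65.2, 68.5 and 65.7 in 1% oxygen. The 3 groups did not overlap, with 1% between the other 2 levels. The difference from 21% was -0.47 ± 0.10 (SE), limma adjusted p = 0.00135 in 5% oxygen and -0.19 ± 0.10 (SE), limma adjusted p = 0.277 in 1% oxygen. After rescaling to a common total that of 5% oxygen was -0.34 (limma adjusted p = 0.119).

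At 24 h BID was 69.7, 74.5 and 99.3 FPKM in 21%, 57.6, 54.9 and 59.6 in 5% and 55.8, 60.4 and 57.2 in 1% oxygen. The value of 99.3 was that of replicate 3 of 21% oxygen at 24 h, whose FPKM summed to 1171415 against 632398 to 900700 in the other libraries of that time. The differences from 21% were -0.47 ± 0.10 (SE), limma adjusted p = 0.00224, in 1% and -0.48 ± 0.10 (SE), limma adjusted p = 0.00568, in 5% oxygen. Without that replicate the latter was -0.32 (limma adjusted p = 0.117). Rescaling to a common total moved the median of all genes in the 24 h comparison of 1% with 21% oxygen from -0.0040 to 0.39, and there the difference of BID was -0.01 (limma adjusted p = 0.958).

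BAD, which neutralises BCL-XL until survival signals phosphorylate it, differed more between times than between oxygen levels. At 24 h it was 13.0, 10.2 and 4.44 FPKM in 21%, 11.1, 9.32 and 12.2 in 5% and 21.6, 17.9 and 19.6 in 1% oxygen. The 1% libraries lay above all others. At 3 d it was 30.0, 26.5 and 27.6 FPKM in 21%, 24.8, 23.5 and 27.8 in 5% and 25.2, 30.4 and 20.3 in 1% oxygen, with overlap between neighbouring levels. The difference of 1% from 21% at 24 h was 1.13 ± 0.29 (SE), limma adjusted p = 0.00846, and without replicate 3 of 21% oxygen at 24 h, where BAD was at 4.44 FPKM, it was 0.73 (limma adjusted p = 0.137).

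BBC3 and BIK were too low to test. BBC3, a target of p53, was 0.604, 0.608 and 0.545 FPKM in 21% oxygen at 3 d, 1.56, 0.858 and 2.16 in 5% and 2.39, 1.25 and 0 in 1%. Its 5% libraries and both 1% libraries other than the shallow one lay above the 21% libraries. BIK was between 0 and 1.01 FPKM and at 0 in 6 libraries.

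**Figure D2:**
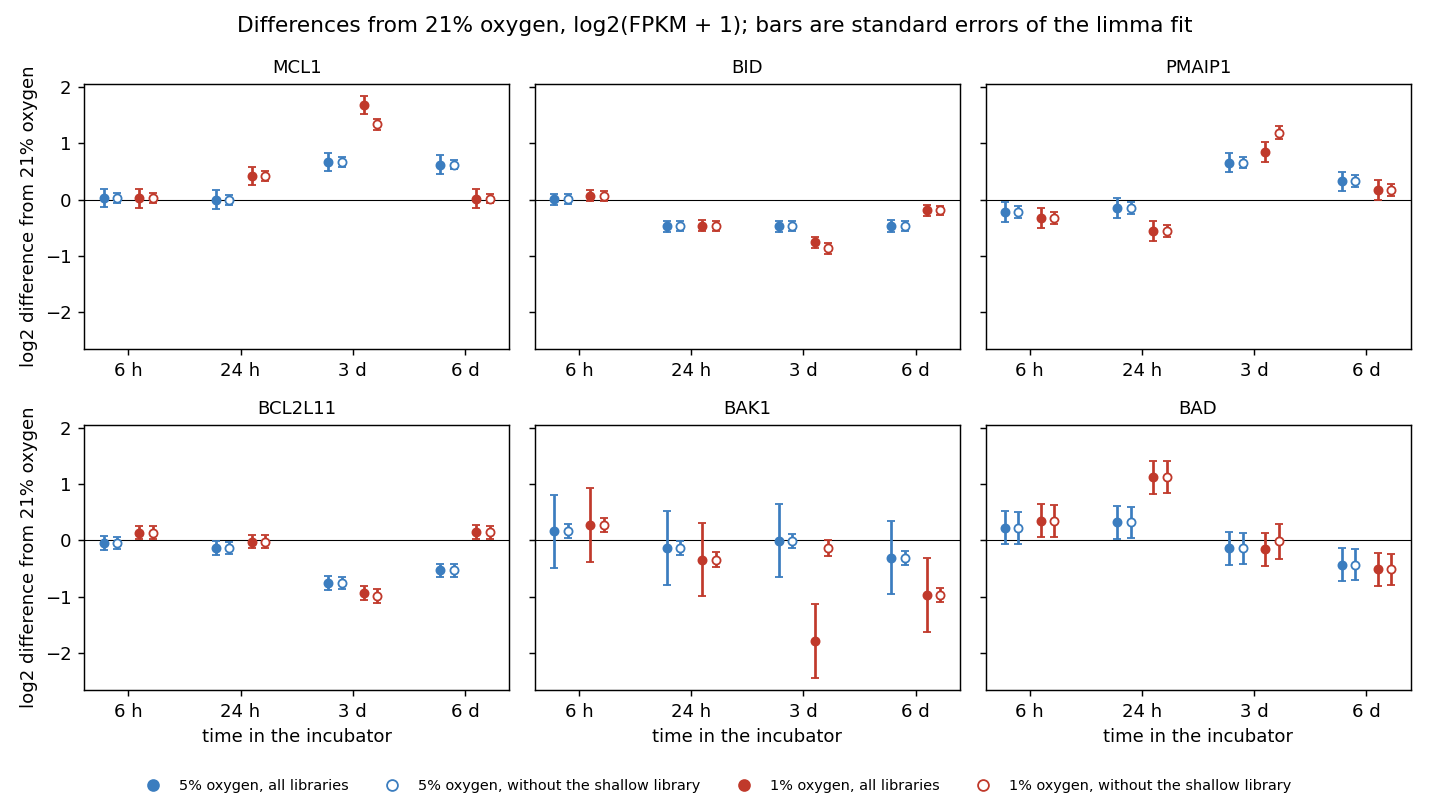
Difference from 21% oxygen on the log2(FPKM + 1) scale (vertical axes) against time for 6 members, in 5% and 1% oxygen, with standard errors of the limma fit; filled points use all libraries and open points leave out the shallow library. MCL1, PMAIP1 and BCL2L11 departed from 0 at 3 d at both oxygen levels, and at 6 d the 5% differences of MCL1, BID and BCL2L11 passed the test with all libraries.

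Counted over the members, 0 of 8 passed in 1% against 21% oxygen at 6 h, where 0% of all genes did and 0 members had an unadjusted p under 0.05 in limma. In a fit without the shallow library, 0 passed, beside 0.0945% of all genes, and 2, PMAIP1 and BAK1, had an unadjusted p under 0.05. At 24 h, 3 of 8 passed against 16.2% of all genes. MCL1 and BAK1 passed as well without the shallow library, when the share of all genes was 38.7%. At 3 d, 7 passed against 53.2%, of which 4, namely MCL1, PMAIP1, BID and BCL2L11, passed without the shallow library, against 53.7%. A fit on the 6 libraries of that comparison alone left 2 calls, those of MCL1 and BID. At 6 d, 0 passed against 10.9%, 0 had an unadjusted p under 0.05 and 5 passed with limma's array weights. BAK1 alone passed without the shallow library, against 29.9% of all genes. Averaged over time 3 passed, MCL1 higher by 0.54 (SE 0.08), BID lower with -0.34 (SE 0.05) and BCL2L11 lower with -0.17 (SE 0.06), against 31.4% of all genes. These differences without the shallow library were 0.45, -0.37 and -0.18, and 4 members passed, against 49.1% of all genes. The call of BCL2L11 was lost on leaving out any of 9 single libraries, and after rescaling to a common total its averaged difference was -0.02 (limma adjusted p = 0.856).

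In 5% against 21% oxygen, which uses the same 21% libraries, 0 of 8 members passed at 6 h, 1 at 24 h, 4 at 3 d and 3 at 6 d. The shares of all genes were 0% at 6 h, when 0 members had an unadjusted p under 0.05 in limma, and 9.38%, 21.8% and 14.8% at the later times. In the fit without the shallow library, 0, 1, 4 and 4 passed at these times, beside 0%, 28.3%, 45.1% and 36.9% of all genes. There 1 member had an unadjusted p under 0.05 in limma at 6 h. Averaged over time 3 passed against 24.2% of all genes, namely MCL1 at 0.33, BID at -0.35 and BCL2L11 at -0.37. Leaving that library out, 4 passed, with PMAIP1 added, beside 48.5% of all genes. The median log2 difference of the 8 members at 3 d was 0.01 in 5% oxygen beside -0.10 over all genes. In 1% oxygen without the shallow library it was -0.17 beside -0.02. Members that rose and members that fell thus offset each other.

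Between 1% and 5% oxygen, 0 of 8 members passed averaged over time, when 4.41% of all genes did. In that comparison 3 members had an unadjusted p under 0.05 by limma. BAK1 and BCL2L11 passed without the shallow library, when 14.1% of all genes did. At 6 h 0 members and 0.0471% of genes passed, and at 24 h 0 members and 0.744% of genes, while 0 and 3 members had an unadjusted p under 0.05. Leaving out the shallow library, 0 passed at 6 h, beside 1.27% of genes, and MCL1 and PMAIP1 passed at 24 h, beside 2.94%. At 3 d 5 members passed against 36.6%, MCL1 higher by 1.02 ± 0.16 (SE), limma adjusted p = 0.000128, and BID, BCL2L1, BAX and BAK1 lower. Without the shallow library, when 26.9% of genes passed, MCL1 was higher by 0.67 ± 0.10 (SE), limma adjusted p = 3.3e-05. PMAIP1 was then higher by 0.53 ± 0.12 (SE), limma adjusted p = 0.00155, while BID and BCL2L1 were lower and neither effector passed. The difference of BID missed the threshold on leaving out any of 5 single libraries and reversed to 0.04 (limma adjusted p = 0.835) after rescaling to a common total. At 6 d 2 members passed against 8.61% of genes, MCL1 and BCL2L11, and without the shallow library BAK1 and BID passed too, against 27.5%.

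The oxygen difference itself varied with time for 6 of 8 members in 1% oxygen, by a moderated F test that 40.3% of all genes passed. These were MCL1 (limma adjusted p = 3.35e-06), BCL2L11 (2.02e-05), PMAIP1 (0.000241), BID (0.000278), BAD (0.0119) and BAX (0.0391). Without the shallow library these 6 and BAK1 passed, against 63.3% of all genes, BAK1 at a limma adjusted p of 1.47e-05. In 5% oxygen 4 of 8 passed, against 14.5% of all genes, namely BCL2L11 (limma adjusted p = 0.00881), BID (0.0304), PMAIP1 (0.0305) and MCL1 (0.0485). On leaving out 1 library at a time this count was 1 to 4, and after quantile normalization it was 1. In the fit without the shallow library 4 passed, against 42% of all genes.

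Within an oxygen level the steps in time showed the same turn at 3 d. From 6 h to 24 h 0 members passed at any level, against 0.132% of all genes in 21%, 0.141% in 5% and 3.79% in 1% oxygen, and 1, 0 and 1 members had an unadjusted p under 0.05 by limma. If the shallow library was left out, BID passed in 21% and MCL1 and BAK1 in 1% oxygen, against 2.43% and 17.5% of all genes. From 24 h to 3 d 2 members passed in 21% oxygen, against 10.8%, with BAD higher by 1.62 ± 0.29 (SE), limma adjusted p = 0.0007, and BCL2L11 lower, with -0.43 ± 0.12 (SE), limma adjusted p = 0.0194. The latter call was lost without replicate 3 at 24 h (-0.32, limma adjusted p = 0.197), without replicate 3 at 3 d, and after rescaling to a common total. In 5% oxygen 4 passed against 25.9%: MCL1 rose by 0.92, BAD by 1.15 and PMAIP1 by 0.85, and BCL2L11 changed by -1.05. Without the shallow library BCL2L1 and MCL1 passed as well in 21%, and BCL2L1 and BAK1 in 5% oxygen, all higher. The shares of all genes were then 29.6% and 50%. In 1% oxygen 6 passed against 51%. MCL1 rose by 1.52 ± 0.16 (SE), limma adjusted p = 2.55e-08, PMAIP1 by 1.45 ± 0.17 (SE), limma adjusted p = 1.63e-07, and BCL2L11 changed by -1.35 ± 0.12 (SE), limma adjusted p = 8.45e-10. The same steps without the shallow library were 1.17, 1.79 and -1.40, and all 3 passed, when 48.8% of all genes did. BID also passed with and without the shallow library, and BCL2L1 and BAX only with it, while BAK1 rose by 0.50 only without it.

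From 3 d to 6 d 0 members passed in 21% oxygen, against 1.06% of all genes, and 0 in 5% oxygen, against 7.41%, with 0 and 2 members at an unadjusted p under 0.05 by limma. With the shallow library left out 0 passed in 21% and 3 in 5% oxygen, against 7.31% and 25.1% of all genes. Of these 3, BAK1 and PMAIP1 were lower and BCL2L11 was higher. In 1% oxygen 6 passed against 49%. There MCL1 fell with a log2 difference of -1.50 ± 0.16 (SE), limma adjusted p = 4.47e-08, and PMAIP1 with -0.70 ± 0.17 (SE), limma adjusted p = 0.0021. BCL2L11 rose by 1.19 ± 0.12 (SE), limma adjusted p = 1.25e-08, and BID by 0.58 ± 0.10 (SE), limma adjusted p = 5.08e-05. Leaving the shallow library out, the 4 steps were -1.15, -1.05, 1.24 and 0.69, and all passed, when 44.6% of all genes did. BAK1 fell between those times only without the shallow library, with -1.01 ± 0.14 (SE), limma adjusted p = 1.29e-06, and BCL2L1 and BAX passed only with it. The changes of MCL1, PMAIP1, BID and BCL2L11 that had appeared in 1% oxygen at 3 d were thus each followed by a change in the other direction by 6 d.

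The erythroid markers moved over the same times. Of the 12, 5 were higher and 0 lower at 3 d in 1% against 21% oxygen, beside 53.2% of all genes that passed. Without the shallow library 6 were higher, beside 53.7%. In 5% oxygen 5 were higher, beside 21.8%, and 7 without that library, beside 45.1%. At 6 d 7 were higher in 1% against 21% oxygen, where 10.9% of all genes passed, with a median log2 difference of 1.47. Without the shallow library 10 were higher, beside 29.9% of all genes. From 3 d to 6 d in 1% oxygen 11 rose, and 12 without that library, where 49% and 44.6% of all genes passed. The turns of MCL1, BCL2L11 and BAK1 given above fell in the same step. The summed FPKM of the 12 was 9064 to 12073 at 3 d and 36479 to 43796 at 6 d in 1% oxygen, 10333 to 12279 and 21962 to 23459 in 5%, and 5613 to 6302 and 5142 to 5506 in 21%. At 24 h it was 11032 to 12960 in 1%, 9698 to 11770 in 5% and 12422 to 22277 in 21% oxygen. From 24 h to 3 d the sum thus fell without overlap in 21% oxygen, while in 1% and 5% its ranges overlapped. In that step 1 marker rose and 5 fell in both 21% and 1% oxygen, beside 10.8% and 51% of all genes. In 5% oxygen 3 rose and 2 fell, beside 25.9%. Leaving the shallow library out, 9, 3 and 6 fell in 21%, 1% and 5%, beside 29.6%, 48.8% and 50%, and as many rose as before. Among markers of other cells, CD3D was higher at 3 d in 1% oxygen by 1.55 (1.71 without the shallow library) and in 5% by 1.89, while CD3E, of the same receptor complex, was at a median of 0.0620 FPKM and at 0 in 15 libraries. EPCAM was lower at 3 d, with -1.22 in 1% (-0.94 without the shallow library) and -0.80 in 5%, and COL1A2 was higher by 0.65 (0.59) and 0.82. The part of these shifts in the results of the members was not tested.

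The balance of the family was described by the ratio of the summed FPKM of BCL2L1 and MCL1 to that of the 8 death-promoting members, a quantity that does not depend on how a library is scaled. No test was made of it. All FPKM of MCL1 counts as protective here, although 12.6% of it was assigned to the full-length form, so the ratio describes genes and not the protective isoforms. In 21% oxygen the ratio was 0.420, 0.413 and 0.388 at 6 h and 0.380, 0.409 and 0.335 at 24 h. At 3 d it was 0.438, 0.430 and 0.384 and at 6 d 0.371, 0.368 and 0.342. It therefore stayed between 0.335 and 0.438 at all 4 times in 21% oxygen.

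In 5% oxygen the ratio was 0.415, 0.414 and 0.407 at 6 h and 0.463, 0.452 and 0.410 at 24 h. It was 0.529, 0.508 and 0.630 at 3 d and 0.550, 0.586 and 0.538 at 6 d, above every 21% library at both times. In 1% oxygen it was 0.412, 0.413 and 0.437 at 6 h and 0.527, 0.512 and 0.502 at 24 h. It was 0.602, 0.593 and 1.02 at 3 d, the last being the shallow library, and 0.468, 0.539 and 0.455 at 6 d. From 24 h on, all 1% libraries lay above all 21% libraries, and at 6 h the 3 oxygen levels overlapped. At 24 h the 5% libraries also lay above the 21% libraries of that time, the closest being at 0.410 and 0.409.

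**Figure D3:**
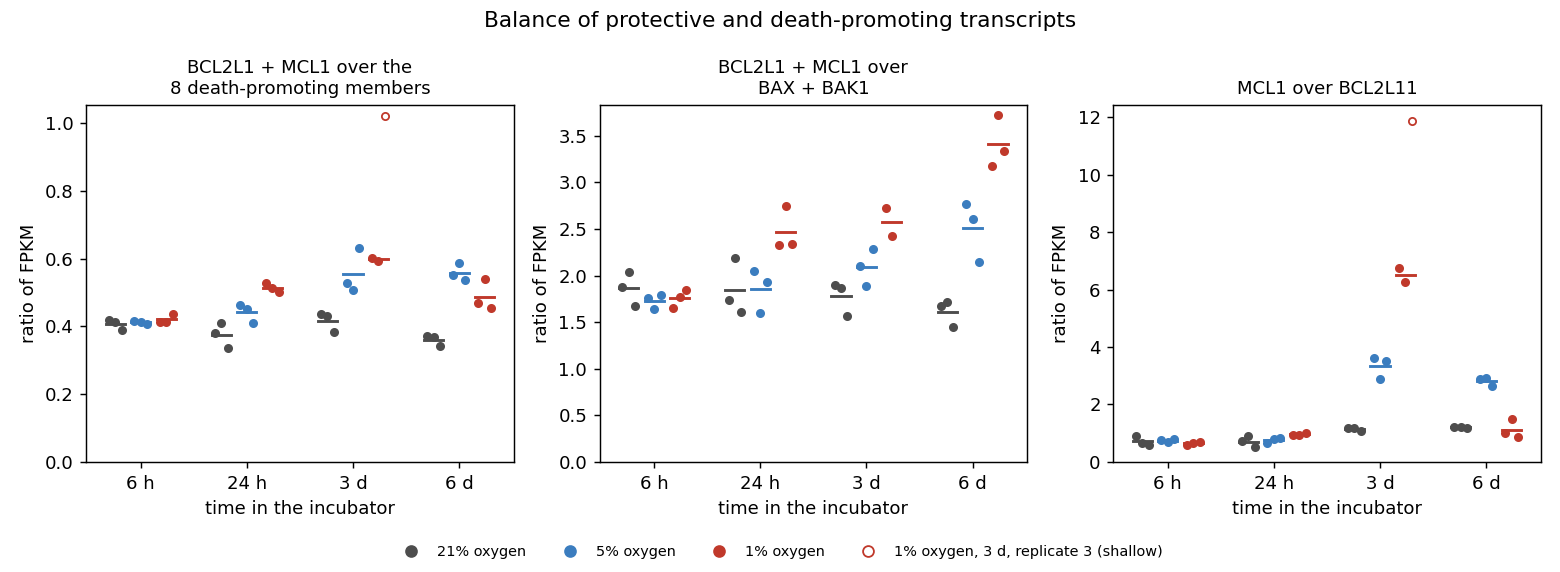
Ratios of FPKM (vertical axes) in each library against time, coloured by oxygen level: protective to death-promoting members, protective members to the effectors, and MCL1 to BCL2L11, with lines at group means without the shallow library (open point, not defined against the effectors). The group mean of the first ratio was highest at 3 d in 1% oxygen and that of the ratio to the effectors at 6 d in 1% oxygen.

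Different members made up the shift at different times. At 24 h the ratio of MCL1 to PMAIP1 was 1.54, 1.48 and 2.07 in 1% and 0.750, 0.870 and 0.807 in 21% oxygen. In 5% oxygen it was 0.849, 0.963 and 0.897. The ratio of MCL1 to BCL2L11 was then 0.930, 0.950 and 1.005 in 1% and 0.724, 0.892 and 0.513 in 21% oxygen. At 3 d the mean of BID was 40.9 FPKM in 1% oxygen without the shallow library and 75.7 FPKM in 21%. Of the death-promoting FPKM, BID formed 26.9, 27.0 and 52.9 percent in 1% oxygen, against 41.1, 43.0 and 44.6 percent in 21%. At the same time MCL1 formed 46.9, 43.4 and 85.1 percent of the protective FPKM in 1% oxygen, against 21.6, 22.5 and 19.3 percent in 21%. Outside the shallow library its transcript of 197 codons was 32.8 to 34.98 FPKM then in 1% and 10.4 to 13.7 in 21% oxygen, and the full-length one of 350 codons 4.48 to 7.28 and 1.93 to 2.87. In 5% oxygen at 3 d the former was 19.3 to 23.0 and the latter 2.19 to 2.92 FPKM, where the full-length form overlapped that of 21% oxygen. The ratio of MCL1 to BCL2L11 at 3 d was 6.74, 6.26 and 11.9 in 1%, 3.61, 2.89 and 3.53 in 5% and 1.17, 1.18 and 1.09 in 21% oxygen. The ratio of MCL1 to PMAIP1 at 3 d was 1.03, 1.07 and 4.60 in 1% and 0.972, 1.00 and 0.863 in 21% oxygen. At 3 d and outside the shallow library, MCL1 relative to BCL2L11 thus stood far above the 21% libraries at both low oxygen levels. Relative to PMAIP1 it stood just above them in 1% oxygen, where the gap had been wider at 24 h.

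At 6 d the ratio of the protective members to BAX and BAK1 was 3.17, 3.72 and 3.34 in 1%, 2.76, 2.61 and 2.15 in 5% and 1.67, 1.71 and 1.45 in 21% oxygen. The 3 levels did not overlap. In 1% oxygen the effectors summed to 20.1 to 21.3 FPKM then, against 38.6 to 42.2 in 21%, while MCL1 relative to BCL2L11 was 1.01, 1.495 and 0.876 against 1.20, 1.23 and 1.19. The ratio of MCL1 to BCL2L11 in 1% oxygen thus overlapped that of 21% at the time when the ratio to the effectors was highest.

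**Figure D4:**
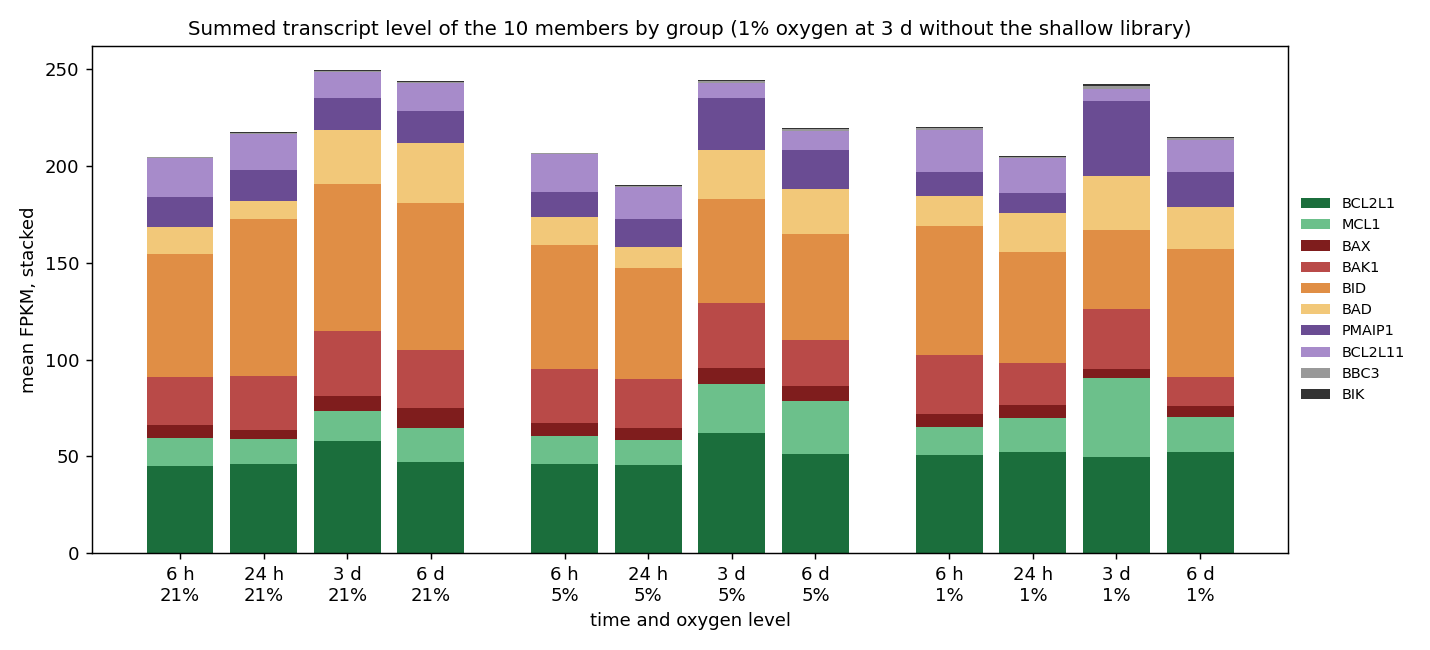
Mean FPKM of the 10 members stacked for each of the 12 groups (horizontal axis: time and oxygen level), the shallow library being left out of 1% oxygen at 3 d. BCL2L1 (dark green) lay between 45.2 and 62.2, MCL1 (light green) widened at 3 d in 1% and at 3 d and 6 d in 5% oxygen, and BID (orange) was narrower there than in 21% oxygen.

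Of 17 other genes of the family or its relatives, 8 passed the minimum level, and BCL2A1, BCL2L10, BCL2L14, BCL2L15, BOK, BMF, HRK and BNIPL stood below it with BCL2. BCL2L2, a further protective gene, was at a median of 2.63 FPKM, and BCL2L12, a more distant relative, at 19.0. At 3 d 2 of the 8 passed in 1% against 21% oxygen, beside 53.2% of all genes, and 2 in 5%, beside 21.8%, all higher. Those 2 were BNIP3 and BNIP3L, hypoxia-inducible genes whose products act in mitophagy. Without the shallow library MOAP1, a binding partner of BAX, also passed at both levels, beside 53.7% of all genes in 1% and 45.1% in 5%. BNIP3 was 230.1 ± 37.0 FPKM (SD, n = 3) in 1% (249.9 without the shallow library), 254 ± 12.5 in 5% and 67.2 ± 4.70 in 21% oxygen at 3 d. At 6 d it was 471 ± 23.1 in 1%, 266 ± 7.04 in 5% and 70.3 ± 4.14 in 21% oxygen. Its difference of 1% from 21% was 1.75 ± 0.09 (SE), limma adjusted p = 1.77e-14 at 3 d (1.88 without the shallow library) and 2.73 ± 0.09 (SE), limma adjusted p = 3.23e-18 at 6 d, so that BNIP3 was still higher at 6 d in 1% oxygen, when the difference of MCL1 from 21% was 0.02.

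Of 20 known transcriptional regulators of the members, 16 were tested. At 3 d 7 were higher and 3 lower in 1% oxygen, beside 53.2% of all genes that passed, and 6 higher and 3 lower in 5%, beside 21.8%. Leaving the shallow library out gave 10 and 3 in 1% and 8 and 3 in 5%, beside 53.7% and 45.1% of all genes. DDIT3 (CHOP), a factor of the integrated stress response, was 445 ± 57.6 FPKM (SD, n = 3) in 1% (478 without the shallow library), 377 ± 40.7 in 5% and 77.95 ± 1.77 in 21% oxygen at 3 d. At 6 d it was 90.5 ± 4.29 in 1%, 241 ± 17.2 in 5% and 57.7 ± 2.22 in 21%. The difference from 21% was 2.49 ± 0.11 (SE), limma adjusted p = 3.12e-16 in 1% oxygen at 3 d (2.60 without the shallow library) and 0.64 ± 0.11 (SE), limma adjusted p = 0.000115 at 6 d, and in 5% oxygen 2.04 ± 0.11 (SE), limma adjusted p = 3.92e-14 at 6 d.

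STAT5A, a factor downstream of cytokine receptors and BCR-ABL, was 20.3 ± 2.84 FPKM in 1% (18.7 without the shallow library), 29.3 ± 1.11 in 5% and 105 ± 0.945 in 21% oxygen at 3 d. Its difference from 21% was -2.32 ± 0.09 (SE), limma adjusted p = 1.05e-17 in 1% oxygen at 3 d (-2.42 without the shallow library) and -1.46 ± 0.09 (SE), limma adjusted p = 3.49e-13 at 6 d. EGR1, an immediate early gene, was higher by 2.90 in 1% and 2.71 in 5% oxygen at 3 d, and EPAS1, the gene of HIF-2 alpha, by 2.49 and 1.42. Those of 1% oxygen without the shallow library were 2.74 and 2.55. Whether any of these factors acts on the members was not tested.

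**Figure D5:**
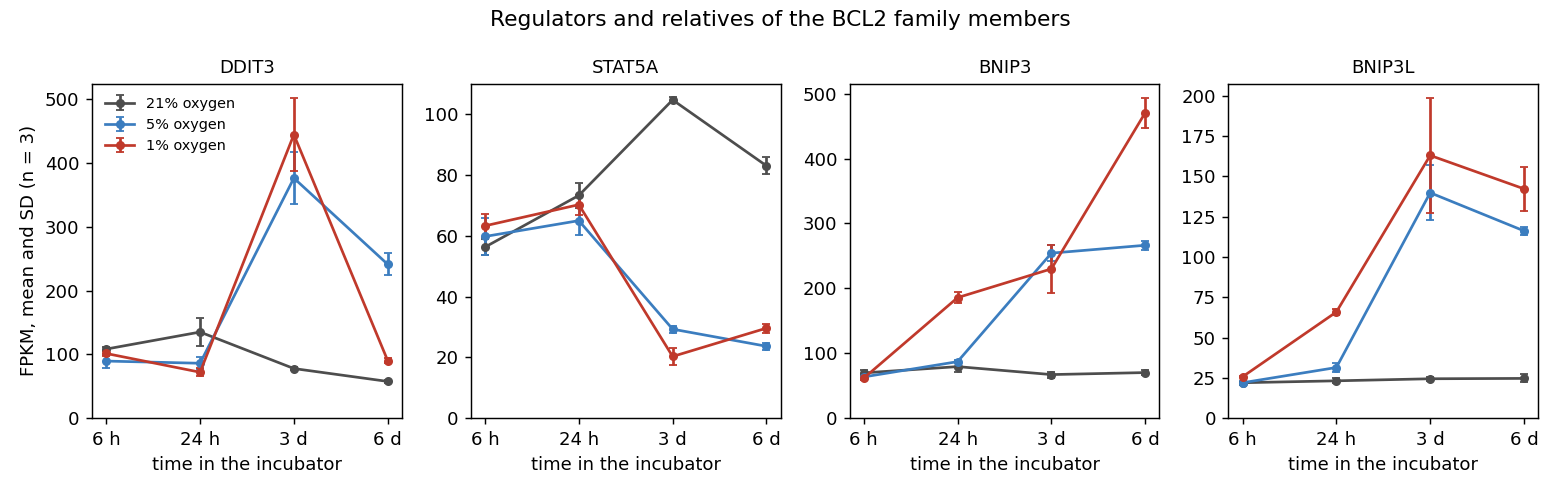
Mean FPKM with SD (n = 3, all libraries) against time for DDIT3, STAT5A, BNIP3 and BNIP3L, coloured by oxygen level. DDIT3 in 1% oxygen was 445 ± 57.6 at 3 d and 90.5 ± 4.29 at 6 d, while BNIP3 went from 230.1 ± 37.0 to 471 ± 23.1.

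Downstream of the family, 20 of 22 genes of caspase activation were tested. This list also holds inhibitors, DFFA among them, and its counts are not split by role. At 3 d 2 were higher and 13 lower in 1% oxygen, where 53.2% of all genes passed, with a median of -0.57 beside -0.32 over all genes. Excluding the shallow library, 5 were higher and 12 lower, where 53.7% of all genes passed, with a median of -0.31 beside -0.02. In 5% oxygen 0 were higher and 7 lower, where 21.8% of all genes passed, with a median of -0.38 beside -0.10. There 2 were higher and 13 lower without the shallow library, where 45.1% of all genes passed. PARP1, a DNA repair enzyme cleaved by caspase 3, was lower in 1% oxygen at 3 d, with a difference of -1.34 ± 0.08 (SE), limma adjusted p = 5.93e-13. AIFM1, a mitochondrial flavoprotein released in apoptosis, had a difference of -0.81 ± 0.11 (SE), limma adjusted p = 8.69e-07, and DFFA, the inhibitor of the caspase-activated nuclease, -0.93 ± 0.14 (SE), limma adjusted p = 7.4e-06. The differences without the shallow library were -1.25 for PARP1, -1.004 for AIFM1 and -1.21 for DFFA, and all 3 passed.

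Of 14 genes of the death receptor arm, 10 were tested, and at 3 d 3 passed at each low oxygen level, all higher, beside 53.2% of all genes in 1% and 21.8% in 5% oxygen. Without the shallow library 2 were higher in 1% oxygen, and in 5% oxygen 4 were higher and 1 lower, beside 53.7% and 45.1% of all genes. TNFRSF10B, the TRAIL receptor DR5, was higher by 1.63 ± 0.24 (SE), limma adjusted p = 3.3e-06 in 1% (1.59 without the shallow library) and 1.03 ± 0.24 (SE), limma adjusted p = 0.00199 in 5% oxygen. CFLAR, which blocks caspase 8, was higher by 1.08 ± 0.13 (SE), limma adjusted p = 1.18e-07 in 1% oxygen at 3 d (0.96 without the shallow library) and stood at -0.51 ± 0.13 (SE), limma adjusted p = 0.00786 at 6 d. In this arm the receptor and its inhibitor were thus higher at 3 d while BID, the link from it to mitochondria, was lower.

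Of 19 partners and turnover factors of the members, all were tested, and at 3 d 5 were higher and 7 lower in 1% oxygen, beside 53.2% of all genes that passed, and 3 higher and 3 lower in 5%, beside 21.8%. The balance of directions turned without the shallow library, with 7 higher and 4 lower in 1% oxygen, beside 53.7% of all genes. In 5% oxygen 4 were then higher and 6 lower, beside 45.1%. USP9X, a deubiquitinase that stabilises the MCL1 protein, was higher by 1.24 ± 0.21 (SE), limma adjusted p = 2.51e-05 in 1% oxygen (1.07 without the shallow library). HUWE1, a ubiquitin ligase of MCL1, had a difference of -0.78 ± 0.18 (SE), limma adjusted p = 0.00158 in 5% oxygen, and VDAC1, a channel of the outer mitochondrial membrane, -0.64 ± 0.08 (SE), limma adjusted p = 1.24e-07 in 1% oxygen (-0.74 without the shallow library).

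Over the 12 group means without the shallow library, and among 7261 genes with a mean of at least 5 FPKM, the genes most like MCL1 were ARHGAP21 (Pearson's r = 0.984), ZMIZ1 (0.978) and MYO1D (0.978). Those most like BAK1 were SGPL1 (0.962), DIRAS3 and PDIA4, and those most like BAX were ST3GAL4 (0.886), AGPAT2 and NFKBIB. These 3 members were taken for their range over group means, which for BAX and BAK1 was widened by the shallow library. For PMAIP1 and BCL2L11, added after their values were seen, the nearest genes were NDFIP2 (0.971) and PIGW (0.987). All groups share their cells and their time course, and these correlations are descriptions only.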

How the data were processed

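PolyA RNA of 36 K562 libraries was sequenced as pairs of 25-base reads in a Smart-seq2 style protocol, per the labels. The authors computed FPKM per gene and per transcript with TopHat, Cufflinks and Cuffnorm, per the submitters' processing notes. The genome build is not given in the sources used here, nor are tool versions, and the files' genes carry no coordinates. Neither table holds counts, so depth is unknown. Groups were taken from the labels, and the table holds 0 columns without a sample.

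From the deposited FPKM, log2(FPKM + 1) was computed, and genes averaging at least 1 FPKM were tested in 1 model with 12 group means, trended eBayes and 24 residual degrees of freedom (limma 3.58.1, R 4.3.3), with two-sided tests and Benjamini-Hochberg adjustment over 10625 genes. The model was tested on simulated data. The members, the lists and the comparisons were chosen with earlier results of these data known. All members were named, from each list at most 4 genes per comparison with the smallest adjusted p, and for 3 members the 3 most alike genes; levels of genes in those lists were chosen after seeing them. Alternatives were a pseudocount of 0.1, no filter, a minimum of 5 FPKM, fits on the compared groups, quantile normalization, rescaling to TPM, array weights, a replicate block, leaving out the shallow library and leaving out each library. Promoter windows came from RefSeq on GRCh38.p14.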

Additional observations from a re-analysis of the deposited data

Results flagged for a closer look

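The oxygen difference of 6 members varied between times in 1% oxygen by the moderated F test of limma. The adjusted p was 3.35e-06 for MCL1, 2.02e-05 for BCL2L11, 0.000241 for PMAIP1, 0.000278 for BID, 0.0119 for BAD and 0.0391 for BAX. In 5% oxygen the limma adjusted p was 0.00881 for BCL2L11, 0.0304 for BID, 0.0305 for PMAIP1 and 0.0485 for MCL1. With 3 libraries in each group, no group was large enough to be searched for single outlying libraries by a test of gaps.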

How the results depend on the processing

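Values below are counts of members that passed, unless stated. Array weights gave 6 in 1% against 21% oxygen averaged over time, 5 at 24 h and 5 at 6 d, 3 in 1% against 5% averaged, 12 over its single times and 29 over the steps in time. Fits on the compared groups alone gave 1 at 24 h, 2 at 3 d and 3 at 6 d in 1% against 21%. Without the shallow library these were 5, 4 and 1, beside 38.7%, 53.7% and 29.9% of all genes. Then 1% against 5% averaged over time gave 2, beside 14.1%, as against 1 with a minimum of 5 FPKM. Rescaling to TPM gave 4 over single times in 5% against 21% and 4 in 1% against 5%, and reversed BID in 1% against 5% oxygen at 3 d to 0.0381 on the log2 scale. The variation over time of 5% against 21% gave 2 with no filter, 1 with quantile normalization and 2 with TPM. On leaving out 1 library at a time, the counts ranged from 2 to 5 for 1% against 21% averaged over time, 4 to 7 at 3 d, 0 to 3 for 1% against 5% averaged, 3 to 10 over its single times and 1 to 4 for the variation of 5% against 21%. The log2 ratio of protective to death-promoting FPKM, 1% minus 21% oxygen averaged over time, was 0.43, and 0.70 without BCL2L1 and BID. Both values include the shallow library. On leaving out 1 library at a time the value of 0.43 became 0.37 to 0.46, and it was lowest without the shallow library. The cause of these differences was not tested. With the replicate block, 49 of 49 member calls kept their side of the threshold. The deviations of same-numbered libraries had a median correlation of -0.0024 over 198 pairs (-0.31 to 0.40). For libraries of other numbers it was -7.7e-05 over 396 pairs (-0.32 to 0.33). Such medians cannot tell whether the numbers mark shared cultures or batches. Of the 49 calls, 33 held with TPM and 23 in fits on the compared groups, which have fewer libraries. Depth is unknown, so the levels of BIK and BBC3 cannot be bounded.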
